A study of Mus musculus with 46 samples.

Results

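Of the 34 mouse libraries of blood, isolated cells and skin in the series, 10 devoted most of their transcripts to haemoglobin and form the blood class described here, and 18 formed the leukocyte class with which they are compared. A library was placed in the blood class where Hba-a1, Hba-a2, Hbb-bs and Hbb-bt, the chains of adult mouse haemoglobin, made up more than 10% of its counts. Of the rest, libraries with more than 100 CPM (counts scaled to a common library total) of the keratins Krt5 and Krt14 were called skin, which took 6, and the remainder leukocytes. Another 12 libraries of the 46, from a separate time course, were not classified. The members were thus chosen by the measured haemoglobin and keratin shares of the same libraries, so every value that sets one class against the other is a description and carries no test.

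The mice came from a model of mucous membrane pemphigoid driven by antibodies against laminin 332, and were given intravenous immunoglobulin (IVIG) or phosphate-buffered saline (PBS). Per the labels, RNA was taken from whole blood or from neutrophils and monocytes derived from bone marrow, and transcripts with a poly(A) tail were selected. No cell sort, strain or age is given there. The labels gave 5 libraries each to Blood_IVIG, Blood_PBS, Neutrophil_IVIG, Neutrophil_PBS and Monocyte_PBS, and 3 each to Monocyte_IVIG, Skin_IVIG and Skin_PBS. Titles carry a series number and a second number that recur across tissues, but no label says what these mark, and the p-values below take no account of them. The labels do not say which libraries came from separate animals or cultures, so spreads and p-values measure only the variation between these libraries, which may be technical.

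Class and label disagreed in 6 of the 28 libraries. The blood class held 6 libraries labelled blood, 2 labelled neutrophil (Neutrophil_PBS replicate 1 and Neutrophil_IVIG replicate 5) and 2 labelled skin (Skin_PBS replicate 1 and Skin_IVIG replicate 3). The leukocyte class held 8 libraries labelled monocyte, 8 labelled neutrophil and 2 labelled blood. The last 2 libraries labelled blood, Blood_PBS replicate 2 and Blood_IVIG replicate 3, fell in the skin class. By label, 6 of 10 blood libraries and 2 of 18 neutrophil or monocyte libraries were in the blood class (two-sided Fisher's exact test, p = 0.0110). The blood class was balanced for the condition label, with 5 libraries labelled IVIG and 5 labelled PBS.

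Circulating red cells have no nucleus, but the youngest of them, the reticulocytes, still carry RNA left over from their precursors in the marrow and spleen. As these precursors mature they stop dividing, fill with haemoglobin and switch on haem synthesis and membrane skeleton genes, and reticulocytes then clear their ribosomes and mitochondria. Blood also brings platelets, which inherit RNA from megakaryocytes, and lymphocytes, monocytes and neutrophils. Neutrophil precursors in the marrow make their granule proteins in a fixed order, the primary granules first, and the transcripts are largely gone from the mature cell.

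Haemoglobin genes took between 89.2% and 98.3% of all counts in the blood class, with a median of 93.6%. Counting error was small: the 95% Wilson interval of the lowest library was 89.15% to 89.17% and that of the highest 98.28% to 98.29%, which cover counting error only. In the leukocyte class the same genes took between 0.00183% and 0.577%, with a median of 0.0244%, so that the nearest libraries on either side of the 10% limit were far from it. The 6 blood-class libraries labelled blood spanned 89.2% to 93.9%, and the 4 with another label spanned 96.2% to 98.3%, without overlap. Krt5 and Krt14 together reached at most 0.427 CPM in the leukocyte class, against at least 309.9 CPM in the skin class.

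The adult chains were present in uneven amounts. Hbb-bs, the main beta chain gene in these libraries (chromosome 7, 103826534 to 103828096 on GRCm38), made up 33.9% to 59.0% of blood-class counts with a median of 40.4%. Hba-a2 (chromosome 11, 32296489 to 32297298) made up 21.7% to 29.5%, and Hba-a1 (chromosome 11, 32283511 to 32284465) made up 6.96% to 31.7%. Hbb-bt, the minor beta chain gene (chromosome 7, 103812524 to 103813996), made up 2.13% to 6.17%. The ratio of alpha to beta chain counts ranged from 0.589 in Neutrophil_IVIG replicate 5 to 1.34 in Blood_PBS replicate 5, with a median of 1.05. The paired genes are near copies: 91.0% of the stretches of 31 bases in the Hba-a2 transcript also occur in that of Hba-a1, and 66.9% of those in the Hbb-bs transcript occur in that of Hbb-bt. Their separate values are therefore uncertain, and the summed share is the firmer measure. The embryonic chains Hba-x, Hbb-y and Hbb-bh1 stayed at or below 3.61 CPM in each blood-class library. Hbq1a and Hbq1b, theta globin genes, reached at most 29.3 and 23.7 CPM.

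The stretches before the start sites of 4 abundant red cell genes are shown because GATA and CACCC boxes, bound by GATA and Krüppel-like factors, are the textbook switches of red cell genes. Each gives the 250 bases before the RefSeq start on GRCm38.p6, in the direction of the gene. The gene positions printed in this text come from another annotation. Its starts of these 4 genes lie inside the stretches, so part of each stretch falls within the gene as positioned there. Capitals mark AGATAA or TGATAA and CCACCC on either strand.
Alas2, chrX:150547167-150547416, plus strand: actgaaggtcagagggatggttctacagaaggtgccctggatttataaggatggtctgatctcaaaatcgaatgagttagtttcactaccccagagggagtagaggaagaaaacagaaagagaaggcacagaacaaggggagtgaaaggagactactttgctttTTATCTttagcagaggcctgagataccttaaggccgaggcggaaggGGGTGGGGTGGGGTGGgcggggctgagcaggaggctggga
Bpgm, chr6:34476106-34476355, plus strand: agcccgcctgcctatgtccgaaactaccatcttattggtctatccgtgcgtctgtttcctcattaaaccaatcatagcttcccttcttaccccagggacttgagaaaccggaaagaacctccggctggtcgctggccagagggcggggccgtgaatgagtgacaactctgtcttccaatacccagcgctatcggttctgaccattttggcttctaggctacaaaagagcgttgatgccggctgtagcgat
Hba-a1, chr11:32283422-32283671, plus strand: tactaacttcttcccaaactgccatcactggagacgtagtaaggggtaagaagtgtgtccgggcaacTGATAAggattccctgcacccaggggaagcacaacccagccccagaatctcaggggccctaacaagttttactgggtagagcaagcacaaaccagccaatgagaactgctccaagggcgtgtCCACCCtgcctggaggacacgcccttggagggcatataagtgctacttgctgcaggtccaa
Hbb-bs, chr7:103827929-103828178, minus strand: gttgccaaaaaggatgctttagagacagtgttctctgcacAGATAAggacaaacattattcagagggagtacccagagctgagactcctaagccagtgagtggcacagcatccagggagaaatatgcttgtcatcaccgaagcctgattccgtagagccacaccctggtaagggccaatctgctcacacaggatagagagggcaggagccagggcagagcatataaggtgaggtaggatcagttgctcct

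The Alas2 stretch held 1 GATA match and 3 overlapping CACCC matches, Hba-a1 held 1 of each, Hbb-bs held 1 GATA match, and Bpgm held neither. For CACCC boxes only the exact word CCACCC was searched. Runs of CACCC outside that word, as in ccacaccctgg of the Hbb-bs stretch, were neither marked nor counted. Over all 27025 promoters of the RefSeq table, 17.0% held a GATA match and 27.7% a CACCC match in the same window. Among the membrane and skeleton genes of the red cell with a promoter in the table, 6 of 14 held a GATA match and 8 of 14 a CACCC match. For genes of reticulocyte clearance the counts were 1 of 13 and 4 of 13. A match is a run of letters, not a bound site.

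**Figure D1:**
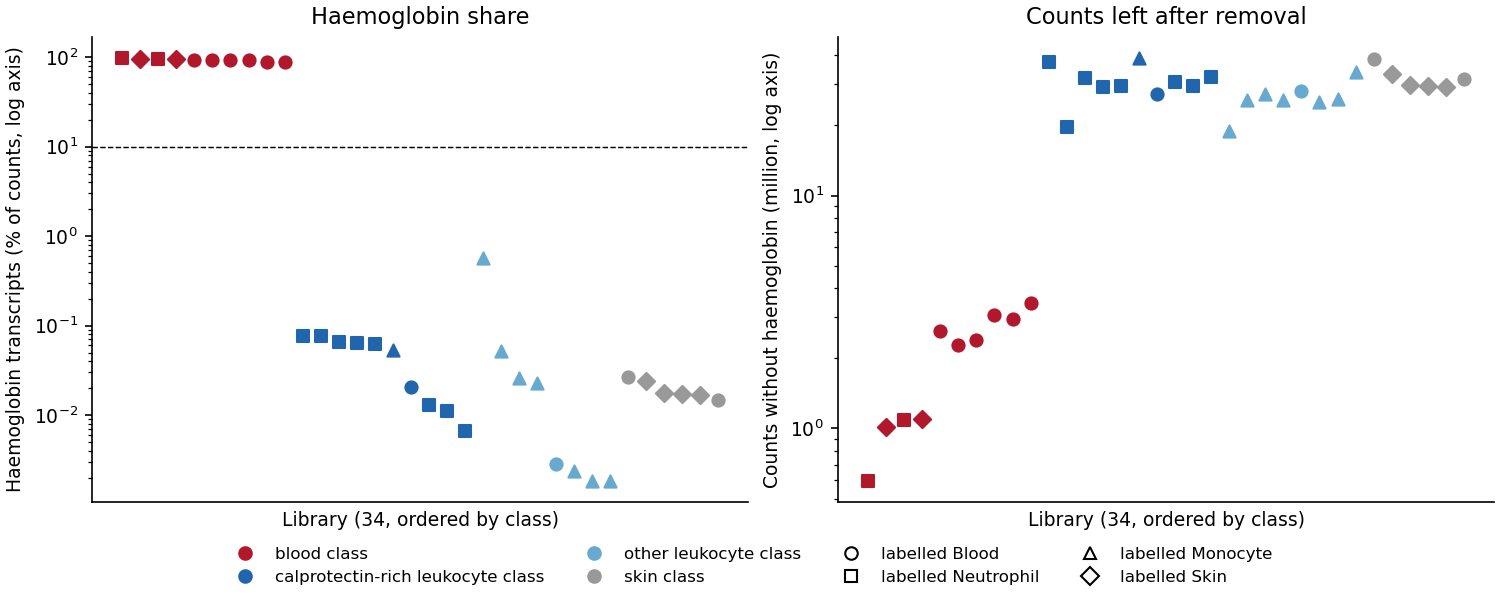
Haemoglobin share of counts (left, percent) and counts left after haemoglobin genes were removed (right), both on log axes, with 1 point for each of the 34 classified libraries, coloured by class and shaped by label. The 10 blood-class libraries lie between 89.2% and 98.3%, above the dashed 10% limit, and keep 594412 to 3452900 counts, fewer than any other library.

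Total depth was similar in the classes, at 27801539 to 43176537 estimated counts for blood and 18965431 to 39014197 for leukocytes. After the 12 haemoglobin chain genes were removed, the blood class kept 594412 to 3452900 counts (median 2339310) and the leukocyte class 18855960 to 38993204 (median 28758662). The 4 blood-class libraries with another label kept the fewest, at most 1099725. Levels below are CPM rescaled to what was left. At an equal depth of 590000 counts, the blood class showed 12143 to 13174 genes with at least 1 count (median 12772.5), and the leukocyte class 7589 to 12829 (median 12391). Without equal depth the ranges were 12161 to 16614 (median 15830) and 9786 to 21180 (median 20435). The breadth of the remaining transcriptome overlapped between the classes either way, and the medians lay closer at equal depth.

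The leukocyte class was itself mixed. In 10 of its libraries S100a8 and S100a9, the chains of the neutrophil protein calprotectin, summed to at least 33729 CPM, and these are called calprotectin-rich below. They were the 8 leukocyte-class libraries labelled neutrophil, Monocyte_PBS replicate 1 and Blood_PBS replicate 1. In the other 8, which were 7 labelled monocyte and Blood_IVIG replicate 2, the sum was at most 8070 CPM. Mitochondrially coded transcripts took 0.345% to 2.94% of the rest in calprotectin-rich libraries, 3.68% to 82.7% in the other leukocytes and 4.52% to 13.6% in the blood class. Monocyte_PBS replicate 3 had the 82.7% and the fewest detected genes, 9786. The part of this share in the results below was measured by leaving such libraries out.

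Across 14174 genes with at least 10 counts in at least 10 of the 28 libraries, 834 (5.88%) were higher in the blood class and 246 (1.74%) lower. A gene was called so when the class means of log2(CPM + 1) differed by at least 1 and the ranges of the classes did not overlap. The median difference over all genes was -0.26 on that scale. Of the called genes 77.2% were higher. With TMM scaling the counts were 1002 and 763 (56.8% higher), and with DESeq2 size factors 1104 and 661 (62.5% higher). These scalings moved all genes up by 0.18 and 0.35. The lower count rested on Monocyte_PBS replicate 3, without which it was 971, with 836 higher. Without the 4 leukocyte libraries above 20% mitochondrial, 934 genes were higher and 2091 lower, and with mitochondrially coded genes removed the counts were 676 and 1062. Against the calprotectin-rich libraries alone, 1226 genes (8.65%) were higher and 2635 (18.6%) lower, and against the other leukocytes 1053 (7.43%) and 271 (1.91%).

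Keeping haemoglobin in the totals gave another picture. Then 40 genes were higher and 5024 lower, and all genes shifted by -2.77. In bulk RNA fewer cells of a type and less RNA per cell cannot be told apart, and every level is a share of the RNA that was counted.

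**Figure D2:**
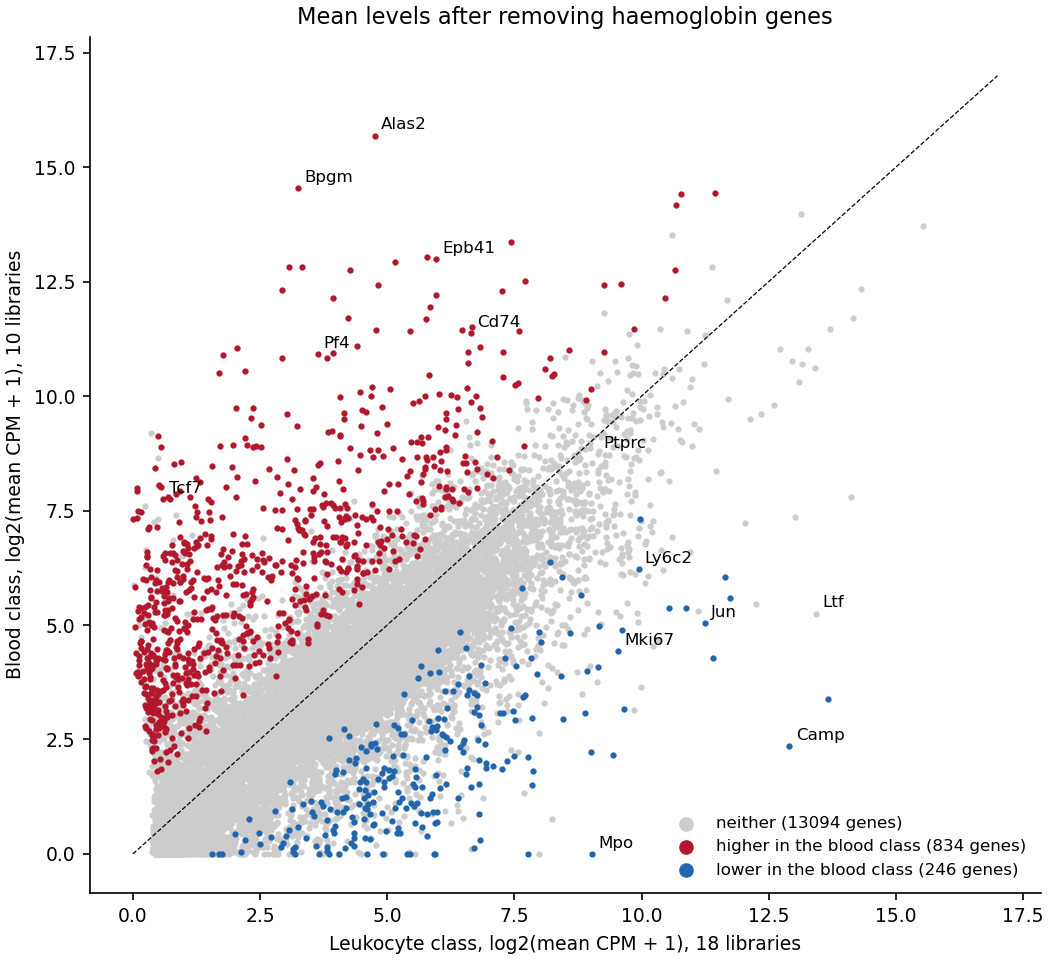
Mean level of each of the 14174 genes in the blood class (10 libraries) against the leukocyte class (18 libraries), as log2(mean CPM + 1) after haemoglobin genes were removed. The 834 genes in red were higher and the 246 in blue lower in the blood class, with Alas2 and Bpgm at the top left and Mpo and Camp at the bottom right.

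Haem synthesis stood out through its first and last steps rather than as a whole. Alas2, the red cell form of the first enzyme of haem synthesis (chromosome X, 150547375 to 150570638), was at 38408, 54398 and 69980 CPM (lowest, median and highest) in the blood class and at 0.844, 12.8 and 132 CPM in the leukocyte class. Its level, a median 5.44% of what remained after haemoglobin, was apart from every leukocyte library, and the class means differed by 11.98 ± 0.47 (log2, SE, n = 10 and 18). Fech, ferrochelatase, which inserts the iron, was at 1673, 2603 and 4048 CPM against 9.12, 26.1 and 46.1, a difference of 6.73 ± 0.21. Slc25a37, mitoferrin, which carries iron into mitochondria, differed by 4.33 ± 0.23 (1029, 1751 and 2155 CPM against 21.8, 117 and 154). Ferritin heavy chain Fth1 differed by 1.97 ± 0.27 (3192, 4389 and 5889 CPM against 205, 1515 and 2490) but was lower in the blood class, by 2.24, with haemoglobin kept in the totals.

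The enzymes in between did not follow. Of the 15 genes for haem synthesis and iron supply 4 were higher and none lower, and the list's median difference was 0.22. Among libraries whose label matched their class that median was -0.03. Without Monocyte_PBS replicate 3 there were 2 lower members, where 971 of all genes tested were lower. Named after its values were seen, Urod, an enzyme that makes a haem precursor, was at 31.3, 116 and 225 CPM against 9.94, 31.6 and 63.4, ranges that overlapped. Cpox, of a later step, had a median of 6.41 CPM in the blood class and 26.9 in the leukocyte class. Glrx5, which serves iron-sulphur cluster assembly, was at 242, 336 and 461 CPM against 27.0, 85.8 and 243, ranges that just overlapped.

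Genes of the red cell membrane and its skeleton were higher in 8 of 20 cases and lower in none, with a median difference of 2.25. With haemoglobin kept in the totals that median was -1.26. Epb41, which ties spectrin to the membrane (chromosome 4, 131923413 to 132075321), led at 3366, 7387 and 15394 CPM against 19.1, 67.7 and 80.9, a difference of 6.96 ± 0.26. Slc4a1, the anion exchanger band 3, was at 193, 445 and 2027 CPM against 0.278, 11.6 and 95.1 (5.34 ± 0.65). Tspo2, a cholesterol-binding protein of maturing red cells, differed by 6.33 ± 0.44.

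Other membrane and skeleton genes had ranges that overlapped those of leukocyte libraries. Named after their values were seen, Ank1, which codes ankyrin, was at 15.4, 50.1 and 93.3 CPM against 0, 8.40 and 57.2, and Rhag, the Rh-associated glycoprotein, at 1.63, 4.15 and 8.18 against 0.0368, 5.12 and 42.4. The calprotectin-rich libraries carried the higher leukocyte values, with a median for Rhag of 23.8 CPM, above every blood-class library, while the other leukocytes had a median of 0.370 CPM.

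Enzymes and chaperones of the red cell cytosol were higher in 6 of 11 cases and lower in none, with a median of 2.86 that turned to -1.24 with haemoglobin kept. Bpgm, which makes the phosphoglycerate that loosens oxygen from haemoglobin (chromosome 6, 34476207 to 34505613), was at 5874, 19216 and 76052 CPM against 1.83, 7.40 and 33.9, a difference of 11.17 ± 0.36. Its levels spread widely within the blood class, and Neutrophil_IVIG replicate 5 held the highest. The peroxide-removing enzymes Prdx2 and Cat differed by 3.89 ± 0.33 and 3.71 ± 0.26, and both fell below the leukocyte class, by -0.31 and -0.44, with haemoglobin kept. Biliverdin reductase Blvrb differed by 5.15 ± 0.38.

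Not every red cell enzyme was higher. Named after their values were seen, Car1, a carbonic anhydrase, was at 0.326, 1.53 and 11.8 CPM in the blood class and 0.0767, 15.8 and 97.2 in the leukocyte class. Car2, its relative, was at 77.2, 254 and 959 CPM against 1.19, 56.7 and 329. Pklr, the red cell pyruvate kinase, reached at most 0.416 CPM in the blood class and 11.2 in leukocytes.

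The list with the largest share of higher genes among the red cell lists was that for reticulocyte maturation and clearance, with 12 of 16 higher and none lower. Its median was 3.28, and -0.31 with haemoglobin kept. Ube2l6, a ubiquitin-conjugating enzyme (chromosome 2, 84798828 to 84810335), was at 4564, 6431 and 18936 CPM against 8.50, 57.6 and 87.0, a difference of 7.25 ± 0.29. Ube2o, which marks ribosomes of reticulocytes for removal, differed by 7.10 ± 0.26 (976, 1766 and 3021 CPM against 1.68, 13.6 and 31.3). The ubiquitin ligase Mkrn1 was at 7151, 10322 and 14429 CPM against 23.6, 195 and 230 (6.02 ± 0.22). Bnip3l, the receptor that sends mitochondria to be degraded in reticulocytes, differed by 4.83 ± 0.34, and Rnf10 by 5.04 ± 0.32. Fbxo7, Ulk1, Xpo7 and Mxi1 were the members whose ranges overlapped or whose means lay within 2-fold.

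Few transcripts of earlier red cell stages were called. Of 12 erythroid transcription factors 1 was higher, where 5.88% of all genes were, and none lower. It was Foxo3, at 86.6, 112 and 152 CPM against 6.82, 64.3 and 78.7 (1.32 ± 0.23, and -2.66 with haemoglobin kept). The list's median difference was 1.18, and -2.40 with haemoglobin kept. Its summed level was 882 to 1311 CPM in the blood class and 118 to 1043 CPM in leukocytes (medians 1145 and 876). The count of higher factors was 4 without Neutrophil_IVIG replicate 5 and 2 without Blood_IVIG replicate 1, where 950 and 853 of all genes tested were higher. It was 4 with TMM or DESeq2 scaling, where 1002 and 1104 of all genes were. Without the leukocyte libraries above 20% mitochondrial it was 0, where 934 of all genes were. Klf1, the Krüppel-like factor of red cell precursors (chromosome 8, 84901928 to 84905291), named after its values were seen, was at 0, 0.509 and 1.85 CPM in the blood class. In calprotectin-rich libraries it was at 1.27, 21.4 and 45.6 CPM, and in the other leukocytes at 0.0767, 0.948 and 33.4. Gata1, also named afterwards, was at 14.5, 42.2 and 68.8 CPM in the blood class and 0.837, 8.56 and 44.5 in the leukocyte class. Of 8 early erythroid and progenitor genes none was called in either direction. Without Blood_IVIG replicate 1 or without Neutrophil_PBS replicate 2, 1 was lower, where 251 and 253 of all genes tested were. The median of the 8 was -1.001, in a range from -2.69 to 2.05, so members lay on both sides. Tfrc, the transferrin receptor that reticulocytes lose, was at 32.9, 50.2 and 107 CPM against 4.13, 38.5 and 127. Kit, the stem cell factor receptor, had medians of 1.25 and 20.9 CPM.

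Cell cycle transcripts were low in the blood class. Of 18 cell cycle genes 13 were lower and none higher, with a median of -4.44. Mki67, the proliferation marker (chromosome 7, 135689784 to 135716361), was at 13.7, 20.6 and 27.8 CPM in the blood class and 61.1, 698 and 1214 in the leukocyte class, a difference of -4.94 ± 0.25. Top2a, topoisomerase II alpha, was at 1.82, 4.91 and 16.3 CPM against 61.5, 362 and 585 (-5.58 ± 0.36). Birc5, survivin, had medians of 3.06 and 192 CPM. The summed list level was 69.0 to 139 CPM in the blood class and 398 to 4037 CPM in leukocytes, and its lowest leukocyte value was that of Monocyte_PBS replicate 3. Against the calprotectin-rich libraries all 18 were lower, where 18.6% of all genes were.

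**Figure D3:**
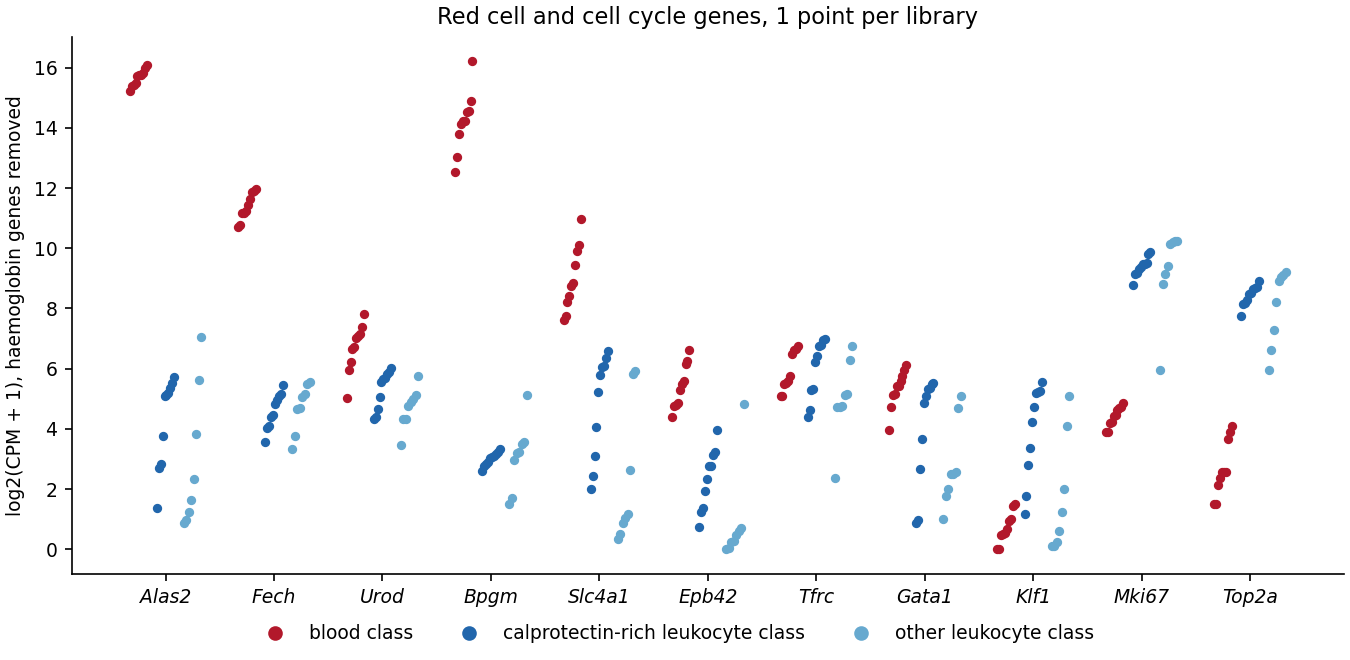
Levels of 9 red cell genes and 2 cell cycle genes as log2(CPM + 1) after removal of haemoglobin genes, with 1 point per library. Alas2, Fech and Bpgm separate the blood class from both groups of leukocyte libraries, Urod and Tfrc overlap, and Klf1, Mki67 and Top2a lie lower in the blood class than in most leukocyte libraries.

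Platelet genes were higher in 16 of 18 cases and lower in none, with a median of 6.38. With haemoglobin kept in the totals 1 was higher and the median was 2.38. Nrgn, neurogranin, a calmodulin-binding protein also carried by platelets (chromosome 9, 37544492 to 37552904), was at 2311, 6776 and 14010 CPM against 0.310, 4.35 and 124 (9.58 ± 0.51). Gng11, a G protein subunit, was at 737, 2118 and 3006 CPM against 0.556, 1.42 and 13.6 (9.23 ± 0.30). The platelet chemokines Pf4 (chromosome 5, 90772435 to 90773383) and Ppbp differed by 7.76 ± 0.38 and 7.81 ± 0.51, and Itga2b, the alpha chain of the fibrinogen receptor, by 6.70 ± 0.48. The summed list ranged from 7197 to 32612 CPM in the blood class, lowest in Skin_IVIG replicate 3, and from 145 to 754 CPM in leukocytes. Selp and Tmem40 were the members not called.

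B cell genes were higher in 15 of 18 cases and lower in none, with a median of 5.57. With haemoglobin kept 1 was higher and the median was 1.77. Cd79a, a signalling chain of the B cell receptor, differed by 6.84 ± 0.42 (70.7, 514 and 890 CPM against 0, 3.73 and 7.30), and Ighd, the constant region of surface IgD, by 7.45 ± 0.35. The immunoglobulin genes that antibody-secreting cells also use overlapped. Ighm, of IgM, was at 162, 930.3 and 1609.7 CPM against 83.6, 337 and 1731, and Igkc, of the kappa light chain, at 72.3, 553 and 949 against 42.5, 684 and 1282. Ighg1, of IgG1 (chromosome 12, 113325240 to 113330523), was lower in the blood class, at 1.68, 6.497 and 17.1 CPM against 109, 600.2 and 2177 (-6.10 ± 0.41).

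Genes of MHC class II presentation, which B cells share with dendritic cells and macrophages, were higher in 6 of 9 cases, with a median of 4.32. With haemoglobin kept none was called and the median was 0.68. Cd74, the invariant chain, was at 654, 2596 and 4153 CPM against 34.5, 105 and 163 (4.77 ± 0.30). H2-Aa, H2-Eb1 and H2-Ab1, chains of the presenting molecules, differed by 5.22 ± 0.29, 5.42 ± 0.34 and 4.32 ± 0.38. H2-Ob, a chain of the H2-O chaperone of B cells, differed by 6.20 ± 0.36. H2-DMa, H2-DMb1 and Ciita were not called.

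All 20 T cell genes were higher, with a median of 5.34. Tcf7, a transcription factor of resting T cells (chromosome 11, 52252371 to 52283014), was at 66.8, 222 and 315 CPM against 0, 0.199 and 3.70 (7.15 ± 0.25). Trbc2 and Trbc1, constant regions of the T cell receptor beta chain, differed by 6.71 ± 0.28 and 5.93 ± 0.19, Lck, the kinase of that receptor, by 6.04 ± 0.28, and the adaptor Lat by 5.68 ± 0.22. With TMM or DESeq2 scaling 19 of the 20 were higher, and with haemoglobin kept in the totals 1 was, with a median of 1.61. The summed list ranged from 937 to 2417 CPM in the blood class and from 13.3 to 52.7 CPM in leukocytes.

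Natural killer cell genes were higher in 6 of the 9 that passed the filter, of 12 in the list, with a median of 3.69. With haemoglobin kept none was higher and 1 was lower, with a median of 0.73. Gzma and Prf1, granzyme A and perforin of cytotoxic granules, differed by 6.09 ± 0.27 and 4.13 ± 0.17. Gzma was at 26.9, 90.5 and 145 CPM against 0, 0.0360 and 1.59. The chemokine Ccl5 differed by 5.40 ± 0.34 and the receptor chain Klrd1 by 4.23 ± 0.17. Nkg7, another granule protein, overlapped at 12.9, 37.6 and 85.8 CPM against 10.1, 26.3 and 57.4.

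Neutrophil transcripts were scarce in the blood class, although whole blood contains neutrophils. All 6 primary granule genes were lower. Mpo, myeloperoxidase (chromosome 11, 87793581 to 87804413), had no count in any of the 10 blood-class libraries and 101, 544 and 1008 CPM in leukocytes. Elane, Ctsg and Ms4a3 were also at 0 throughout the blood class. Taking 3 counts over the 20564634 summed counts as the floor, 0.146 CPM, Mpo was at least 3576-fold lower, Elane at least 1475-fold, Ctsg at least 401-fold and Ms4a3 at least 296-fold. Prtn3, proteinase 3, had 0, 2.50 and 9.45 CPM against 92.3, 550 and 832. The median of the list was -6.31 as fitted with a pseudocount of 1, and -8.43 with the genes at 0 set to their bounds.

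Of 10 genes of secondary and tertiary granules 5 were lower, with a median of -5.56 (-5.87 with Olfm4, at 0 in the blood class, set to its bound). Camp, the cathelicidin precursor (chromosome 9, 109847379 to 109849617), was at 0.762, 3.49 and 11.8 CPM against 308, 10238 and 16163 (-9.84 ± 0.60). Ngp, neutrophilic granule protein, differed by -9.36 ± 0.68, lipocalin Lcn2 by -6.00 ± 0.73 and Chil3, a chitinase-like protein, by -5.73 ± 0.54. Lactoferrin Ltf overlapped, at 0.762, 13.1 and 128 CPM against 68.6, 16384 and 25507. All 10 were lower against the calprotectin-rich libraries, where 18.6% of all genes were. Against the whole class 3 were lower with TMM or DESeq2 scaling, where 763 and 661 of all 14174 genes were.

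Genes of mature neutrophils were lower in 1 of 17 cases against the whole leukocyte class, where 1.74% of all genes were. Against the calprotectin-rich libraries, which S100a8 and S100a9 themselves define, 16 of 17 were lower, where 18.6% of all genes were. S100a9 was at 88.2, 134 and 735 CPM in the blood class and 459, 24208 and 46233 in leukocytes. The other genes of the list showed the same order: Retnlg, a secreted resistin-like protein, had medians of 24.2 and 6401 CPM, and Mmp9, the gelatinase, 31.6 and 2348. The summed list reached at most 2661 CPM in the blood class, in Neutrophil_IVIG replicate 5, and at least 2008 CPM in the other leukocytes. Monocyte genes were lower in 1 of 16 cases, Ly6c2, the marker of classical monocytes, at 21.9, 80.5 and 120.03 CPM against 159.8, 1000.2 and 1743 (-3.73 ± 0.31). Without Monocyte_PBS replicate 3 there were 6 lower monocyte genes and 3 lower neutrophil genes, where 971 of all genes tested were lower. Without Blood_PBS replicate 4 there were 2 lower monocyte genes, where 270 of all were. Without Neutrophil_IVIG replicate 5 there were 3 lower neutrophil genes, where 263 of all were. With TMM scaling 5 monocyte genes were lower, and with DESeq2 size factors 4, where 763 and 661 of all 14174 genes were. Fn1, Klf4 and Nr4a1 had lower medians in the blood class but overlapping ranges. Differences in the monocyte list ran from -3.92 to 2.20 (median -1.84), so not every member lay lower in the blood class. F13a1, the coagulation factor XIII A chain that platelets also carry, was at 85.9, 151 and 307 CPM against 191, 486 and 1974.

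Pan-leukocyte genes were called in no case, but 2 were lower without Monocyte_PBS replicate 3 and 1 without Blood_PBS replicate 4. Of all genes tested 971 and 270 were lower in these settings. The pan-leukocyte median was -1.35, and the summed level was 1475 to 6629 CPM in the blood class and 1136 to 12737 CPM in leukocytes. Laptm5, a lysosomal protein of leukocytes, was at 311, 1286 and 2761 CPM against 163, 1319 and 1939. Of the basophil and eosinophil genes 7 of 9 passed the filter and 1 was lower, Prg2, eosinophil major basic protein, at 0 in the blood class and at least 97.1-fold lower. Prss34 and Mcpt8, proteases of basophils, had medians of 0.163 and 0.872 CPM against 39.1 and 34.9, with overlapping ranges. Differences in that list ran from -4.41 to 2.23 with a pseudocount of 1 (median -0.58), so members lay on both sides.

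**Figure D4:**
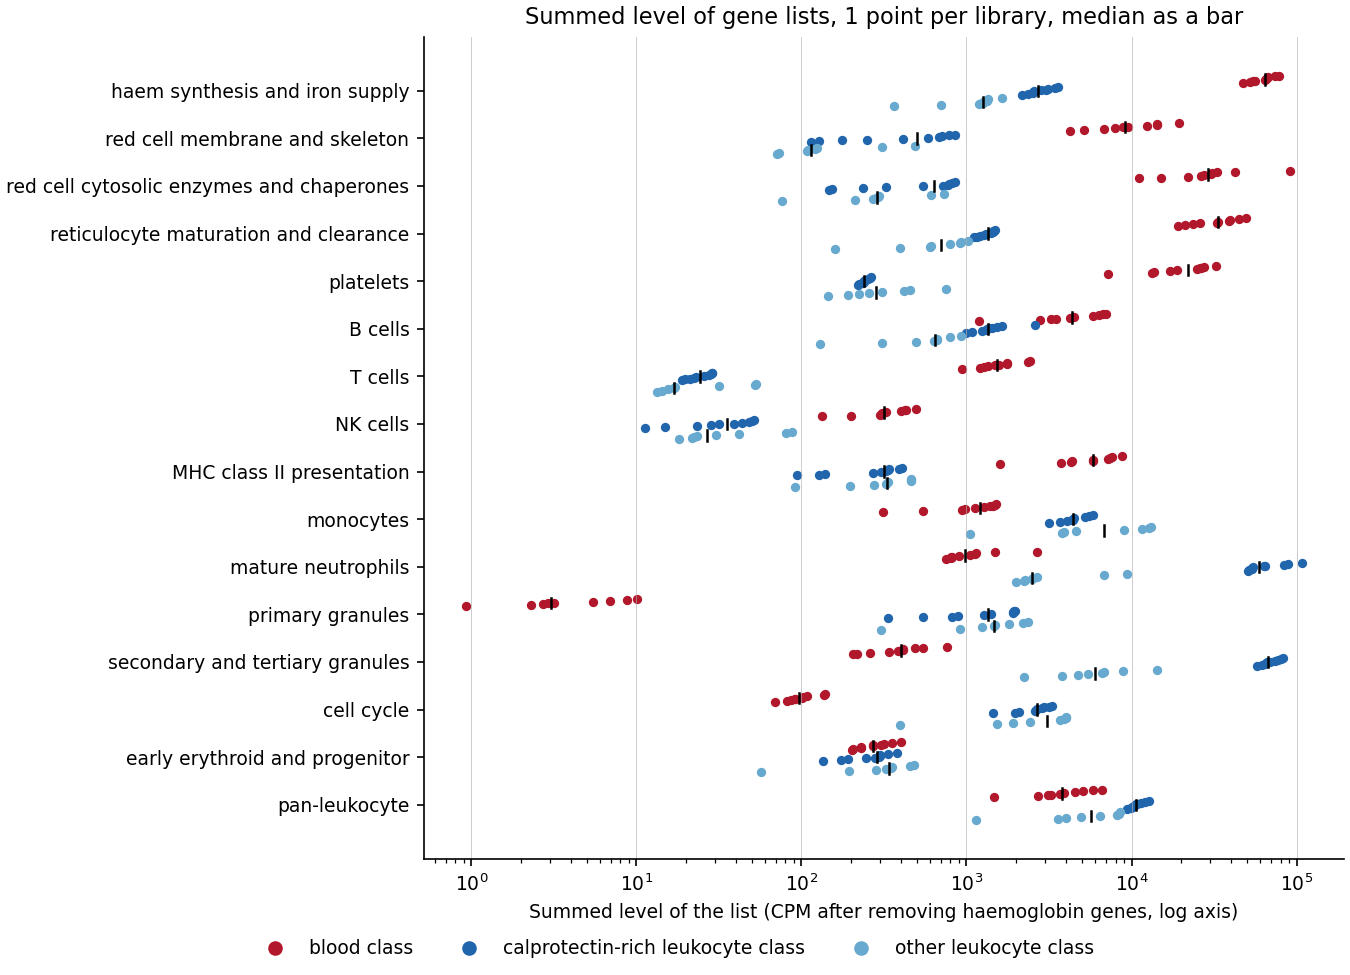
Summed level of 16 gene lists in each library (CPM after removal of haemoglobin genes, log axis), with the median of each group as a bar. The haem synthesis, membrane, cytosolic enzyme, clearance, platelet and T cell sums separate the 10 blood-class libraries upward, the early erythroid sum overlaps, and cell cycle and granule sums separate them downward. A sum can rest on few genes: that for haem synthesis is mostly Alas2 in the blood class, and 4 of its 15 members were called higher. Neutrophil_IVIG replicate 5 had a primary granule sum of 0 and is not drawn there.

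Of 76 cytosolic ribosomal protein genes 3 were higher (Rps2, Rps24 and Rpl41), where 5.88% of all genes were, with a median of 0.12. Rpl41 differed by 1.73 ± 0.19, and by -2.47 with haemoglobin kept. Without Neutrophil_IVIG replicate 5 there were 5 higher ribosomal genes, where 950 of all genes tested were higher. With TMM or DESeq2 scaling there were 6, where 1002 and 1104 of all 14174 genes were. Psmc6 was the proteasome gene called, lower, of 31, where 1.74% of all genes were lower. Without Monocyte_PBS replicate 3, 6 were lower, where 971 of all genes tested were. The proteasome median was -1.13. With TMM 8 were lower and with DESeq2 size factors 7, where 763 and 661 of all 14174 genes were. With mitochondrially coded genes removed 9 were lower, where 1062 of 14157 genes were. Without the leukocyte libraries above 20% mitochondrial 10 were lower, where 2091 of 14174 genes were. With haemoglobin kept all 31 were lower, where 5024 of 14181 genes were. Against calprotectin-rich libraries alone 10 were lower, where 18.6% of all genes were. The summed proteasome level was 1023 to 1905 CPM in the blood class, 2034 to 3055 CPM in calprotectin-rich libraries and 579.5 to 3637 CPM in the other leukocytes. No mitochondrially coded gene of 13 was called. Of 12 skin genes 7 passed the filter and 2 were lower in the blood class, where the summed list reached 1.85 to 9.23 CPM against 28.1 to 237 CPM in leukocytes. These were Col1a1 and Col1a2, the chains of type I collagen, with medians of 0.788 and 0.794 CPM in the blood class and 43.8 and 32.4 CPM in leukocytes.

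Among genes in no list, the rule for naming took the 12 with the largest differences in each direction. Ctla2a, an inhibitor of cysteine proteases (chromosome 13, 60934155 to 60936625), was at 4822, 7173 and 9812 CPM against 0.607, 2.20 and 34.2 (10.30 ± 0.39). It overlaps Gm49391 on the same strand, which differed by 8.74 ± 0.21, so reads could be split between them. Fam220a differed by 9.85 ± 0.24 and Isg20, an RNA exonuclease, by 8.38 ± 0.37. Tfdp2, a partner of E2F factors, differed by 8.03 ± 0.32, and Prxl2a by 8.76 ± 0.33. Clu, clusterin, and Myl9, a myosin light chain, both also known from platelets, differed by 9.30 ± 0.39 and 9.05 ± 0.45. The rest of the 12 were the pseudogenes Rps6-ps4, Gm11518 and Gm28439 and the antisense gene Gm10371, whose counts are uncertain because near copies or the opposite strand could supply the reads.

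On the lower side, Jun and Fos, immediate early transcription factors, were at 8.41, 30.5 and 58.5 CPM against 117, 2501 and 5611 (-5.89 ± 0.41), and at 17.4, 45.9 and 97.2 against 261, 3279 and 7081 (-6.01 ± 0.33). Ccl3, an inflammatory chemokine, differed by -5.91 ± 0.38. Fcnb, ficolin B of granulocyte precursors, differed by -6.31 ± 0.27, Cebpe, the factor that drives secondary granule genes, by -5.96 ± 0.38, and Wfdc21 by -6.37 ± 0.67. Cenpe and Kifc1, motor proteins of the mitotic spindle, differed by -5.37 ± 0.42 and -5.33 ± 0.32. Ube2l3, a ubiquitin-conjugating enzyme related to Ube2l6 (chromosome 16, 17152013 to 17202649), had no count in any blood-class library and 7.40, 61.0 and 97.5 CPM in leukocytes, at least 416-fold lower. Septin5 and Ly6a2 differed by -5.32 ± 0.53 and -5.77 ± 0.41, and Ighg1 completes the 12.

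Within the blood class, libraries stood at the ends of different lists. Neutrophil_IVIG replicate 5 had the highest haemoglobin share, the fewest remaining counts and the highest summed red cell enzyme level (91278 CPM, against a median of 28990). Most of that sum was Bpgm alone, at 7.61% of the counts left after haemoglobin. The same library had the lowest B cell, MHC class II and monocyte sums (1198, 1586 and 311 CPM, against medians of 4387, 5825 and 1201). Its T cell sum, 1206 CPM, was within the range of the other libraries. Skin_IVIG replicate 3 had the highest membrane and skeleton sum, 19440 CPM, and the lowest platelet sum. Blood_PBS replicate 4 was at the other end, with the lowest membrane, enzyme and clearance sums (4248, 11172 and 19130 CPM) and the highest platelet sum, 32612 CPM.

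The ranges of the conditions overlapped in the summed level of every list. The haemoglobin share was 89.2% to 98.3% in the 5 libraries labelled IVIG and 89.4% to 96.8% in the 5 labelled PBS. The B cell sum spanned 1198 to 6380 CPM with IVIG and 3475 to 6995 CPM with PBS, the platelet sum 7197 to 27671 and 13723 to 32612, and the clearance sum 20998 to 49646 and 19130 to 44716. These ranges mix libraries whose tissue label does and does not match, and the IVIG effect was not tested on them. By tissue label, the haem synthesis sum was 47509 to 66203 CPM in the 6 libraries labelled blood and 65236 to 78410 CPM in the 4 with another label, and the MHC class II sum 4389 to 8707 and 1586 to 5813.

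**Figure D5:**
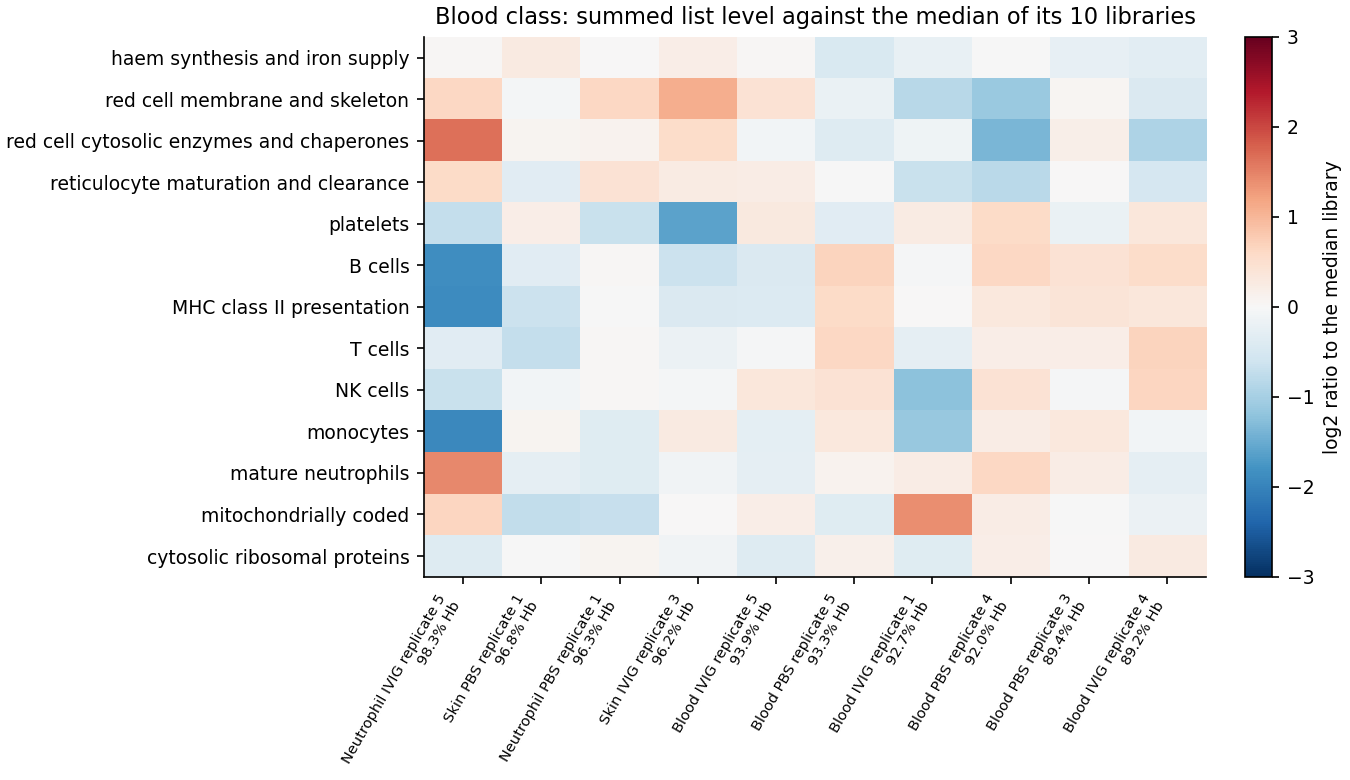
Summed level of 13 gene lists in each of the 10 blood-class libraries as a log2 ratio to the median library, with libraries ordered by haemoglobin share (written under each name). Neutrophil_IVIG replicate 5 stands apart with low B cell, MHC class II and monocyte sums, and Skin_IVIG replicate 3 with a low platelet sum.

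The labels, which were not derived from the transcripts, allow a test. Comparing the 10 libraries labelled blood with the 18 labelled neutrophil or monocyte, again without haemoglobin genes, edgeR's quasi-likelihood test called 1822 of 14928 genes higher (12.2%) and 787 lower (5.27%) at an adjusted p under 0.05. The skin list came first: 7 of 7 tested members were higher, among them Krt10 by 8.17 ± 1.18 (adjusted p = 0.000129), with 207 ± 484 CPM (SD) in libraries labelled blood and 0.678 ± 0.548 CPM in the others. The 2 libraries labelled blood in the skin class carry these transcripts. Without them, 8 labelled blood against 18, 1058 of 15182 genes were higher (6.97%) and 195 lower (1.28%), and 0 of 7 skin genes was called. In the test of all 28, the lower count was unstable to leaving out a library. It fell to between 296 and 406 without any of Blood_IVIG replicates 1, 3, 4 and 5 or Blood_PBS replicates 2 to 5, and to between 499 and 522 without Monocyte_PBS replicate 1, Neutrophil_PBS replicate 5 or Neutrophil_IVIG replicate 4. It rose to 1280, 1307, 1444 and 1835 without Neutrophil_PBS replicate 1, Neutrophil_IVIG replicate 5, Blood_IVIG replicate 2 and Blood_PBS replicate 1.

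By label few red cell genes passed. With haemoglobin kept, Hba-a1 differed by 1.21 ± 2.50 (adjusted p = 0.758) and Hbb-bs by -0.02 ± 3.28 (adjusted p = 0.997). Without the skin-class libraries, Alas2 was at 35000 ± 23493 CPM in 8 labelled blood and 8147 ± 23947 CPM (SD) in 18 labelled neutrophil or monocyte, a difference of 2.10 ± 1.72 (adjusted p = 0.411). Of all genes tested in that comparison, 6.97% were higher and 1.28% lower. Of 15 haem synthesis and iron supply genes 3 were lower and none higher, and none of 20 membrane and 11 cytosolic enzyme genes was called. Of 16 clearance genes 1 was higher, a share near that of all genes. It was Mxi1 (1.34 ± 0.40, adjusted p = 0.0377). Of 12 erythroid transcription factors 2 were higher, Ldb1 (0.72 ± 0.21, adjusted p = 0.0350) and Bcl11a (1.02 ± 0.30, adjusted p = 0.0344). The 2 blood-class libraries labelled neutrophil sit in the group with the lower mean here.

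Lymphocyte and platelet genes passed more often, where 6.97% of all genes were higher. In the same 8 against 18, 8 of 9 MHC class II genes were higher, led in significance by H2-DMb1 (1.12 ± 0.19, adjusted p = 0.00118), with Cd74 at 3.06 ± 0.73 (adjusted p = 0.0112). Of 18 B cell genes 6 were higher, among them Cd79b (3.24 ± 0.75, adjusted p = 0.00954), of 20 T cell genes 4, among them Cd4 (4.90 ± 1.34, adjusted p = 0.0249), of 18 platelet genes 4, among them Gp1ba (3.11 ± 0.63, adjusted p = 0.00415), and of 11 natural killer genes 3. No gene of the neutrophil and granule lists was called in that comparison. Of 18 cell cycle genes 1, Tyms, fell (-1.47 ± 0.43, adjusted p = 0.0341), where 1.28% of all genes were lower. With all 28 libraries, 8 cell cycle genes fell, where 5.27% of all genes were lower. There Klf1 fell by 3.46 ± 0.95 on the log2 scale (adjusted p = 0.0152), to 1.19 from 14.2 CPM. Without the skin-class libraries Klf1 did not pass (-3.16 ± 1.04, adjusted p = 0.0555).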

How the data were processed

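The authors deposited estimated counts per gene symbol (46264 symbols, 46 libraries). Per the submitters' processing notes kallisto 0.46.1 and GRCm38 were used, and the values are scaled by transcript length. Which tool did the scaling is not given in the sources used here, nor is any filter. Values were rounded to whole numbers. No pair among 378 compared was identical. The members and gene lists were chosen with earlier results of these data known.

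CPM were taken from column totals for the class rule. For all other levels the 12 haemoglobin chain genes were removed and CPM rescaled. Classes were compared by the difference of mean log2(CPM + 1), with its SE. Labels were tested with edgeR 4.0.16 (quasi-likelihood F test, TMM, Benjamini-Hochberg adjustment over all genes, R 4.3.3), with limma 3.58.1 and DESeq2 1.42.0 as alternatives. These steps were tested on simulated data. Other steps used Python 3.11.15. Libraries were thinned to 590000 counts for gene detection.

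Named were the haemoglobin genes, up to 5 members of each list with the highest level (class means weighted equally), and the 12 largest differences each way outside the lists among called genes with at least 50 CPM in the higher class. Other names were chosen after their values were seen. Of 389 list genes 386 were in the table. Gene positions are from the GRCm38 annotation and promoters from RefSeq (GRCm38.p6). The treatment field of the labels conflicts with the condition field and was not used. Results for some genes, 1 of the 18 values standing apart among them, are not reported here.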

Additional observations from a re-analysis of the deposited data

Results flagged for a closer look

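Of 138 values tested for a library standing apart within the blood class, 18 did so by Dixon's test, and 17 of these are given here. Chance alone marks about 1 in 20 such groups, and genes of 1 cell type move together, so the marks are not independent.

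Neutrophil_IVIG replicate 5, which has the fewest counts after haemoglobin, was lowest for genes of several kinds. For B cell and MHC class II genes its levels were 70.7 CPM for Cd79a (277 to 889.5 in the other 9 libraries), 53.8 CPM for Ighd, 162 CPM for Ighm, 654 CPM for Cd74 (1773 to 4153 in the others), 140 CPM for H2-Ab1, 149.7 CPM for H2-Eb1 and 43.7 CPM for H2-Ob. It was also lowest for Arhgdib at 138 CPM, Klf4 at 1.68 CPM, Ldb1 at 118 CPM and Il5ra at 0 CPM. With 3 counts as the floor, a 0 in this library means only below 5.05 CPM. Il5ra was at 2.73 to 11.0 CPM in the others, a range that reaches below that floor. Klf4, also below the floor here, was at 13.7 to 68.4 CPM in the others.

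Skin_IVIG replicate 3 was lowest for genes known from platelets, with Gng11 at 737 CPM, Pf4 at 658 CPM and Myl9 at 311 CPM (1216 to 2488 in the others for Myl9), and highest for the ribosomal protein gene Rplp0 at 6359 CPM. Slc25a37 was lowest in Blood_IVIG replicate 4, at 1029 CPM. The mitochondrial share was highest in Blood_IVIG replicate 1, at 13.6%, against 4.52% to 7.79% in the others.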

How the results depend on the processing

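Between the classes, 834 genes were higher and 246 lower. With haemoglobin kept the counts were 40 and 5024, and Fth1 (-2.24), Prdx2 (-0.31), Cat (-0.44), Foxo3 (-2.66) and Rpl41 (-2.47) changed sign. The lower count was 763 with TMM, 661 with DESeq2 size factors and 2635 against calprotectin-rich libraries alone. At equal depth 462 were higher and 133 lower, by a 2-fold difference alone 2064 and 3245, and among libraries with matching labels 1277 were higher. Added after seeing the data, removing mitochondrially coded genes gave 1062 lower, and leaving out libraries over 20% mitochondrial gave 2091. Leaving out 1 library gave 835 to 950 higher and 246 to 971 lower. Of 1996 values of 134 named genes under alternatives, 1809 moved by less than the spread between libraries, 182 moved by more and 5 changed sign. Keeping haemoglobin accounted for 113 of the last 2 kinds together.

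By label, 1822 genes were higher and 787 lower. DESeq2 gave 3583 and 1421, limma voom with quality weights 4486 and 4658. Without a filter 5710 were higher, without TMM 105 were lower, and at an adjusted p under 0.1 1626 were lower. Without the 2 skin-class libraries labelled blood, a choice made after seeing the data, the counts were 1058 and 195. Leaving out 1 library gave 1283 to 2455 higher and 296 to 1835 lower. The Fisher p ranged from 0.00416 to 0.0248. With a replicate block by the series and second number of the titles (15 blocks), rather than the replicate numbers printed here, 0 and 0 genes passed in edgeR (smallest adjusted p = 0.0706, with 3987 genes at an unadjusted p under 0.05). Deviations of same-numbered libraries correlated at -0.74 to 0.47 (13 pairs, 3 over 0.1). Each deviation was taken from the mean of its label group, blood or leukocyte, in which several classes are mixed. These correlations therefore cannot show whether same-numbered libraries are pairs. The causes of these shifts were not tested. The blood class kept at most 3452900 counts after haemoglobin, which limits its low genes.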
